A study of Mus musculus with 23 samples.

Results

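The *Cyp2b* genes of the mouse encode cytochrome P450 enzymes of subfamily 2B. Members were taken by name: *Cyp2b9*, *Cyp2b10*, *Cyp2b13*, *Cyp2b19* and *Cyp2b23*, 5 genes of the 37074 gene names on the array, read by 8 of its 56605 probes. Only 3 of these probes, covering 2 genes, were bright enough to be tested. Liver transcripts were measured in 23 male C57Bl6/J mice on 1-colour Agilent arrays, with 1 array per mouse. Wild-type (WT) mice and *Pxr-/-* mice, which lack a functional gene (*Nr1i2*) for the pregnane X receptor (PXR), were injected daily for 4 days with 100 mg/kg of the rodent PXR ligand pregnenolone 16α-carbonitrile (PCN) in corn oil or with corn oil alone (CONT). All had free access to food and were killed at ZT6 (6 h after lights on), 6 h after the last injection. The labels call this state fed, while the study's text describes mice at that hour as semi-fasted. The groups were WT CONT (n = 6), WT PCN (n = 5), *Pxr-/-* CONT (n = 6) and *Pxr-/-* PCN (n = 6). The study describes 6 WT PCN mice, of which 5 had an array here. WT mice were purchased at 6 weeks of age and acclimatized for 2 weeks, the age of *Pxr-/-* mice was not given separately, and the *Pxr-/-* line, backcrossed to the same strain, had been bred in the facility for 10 years. Genotype and colony therefore cannot be told apart, and the deletion is present in every tissue, not in hepatocytes alone.

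Cytochromes P450 are haem enzymes of the endoplasmic reticulum that oxidize drugs, steroids and other lipids with electrons supplied by the reductase *Por*. *Cyp2b10* is the classical marker of the constitutive androstane receptor (CAR, gene *Nr1i3*) in mouse liver, where barbiturate-type inducers raise it strongly, and PXR, a close relative of CAR, can also act on it. Both receptors pair with RXR and bind repeats of the hexamer AGGTCA or near variants. *Cyp2b9* and *Cyp2b13* are known for higher levels in female than in male liver, and *Cyp2b19* for expression in the keratinocytes of skin.

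The family members are close in sequence, so the probe sequences and the promoter windows are shown first. All coordinates of probes are mm9, as in the array files. *Cyp2b10* was read by 2 probes, called here the 3' probe (chr7:26711522-26711581) and the upstream probe (chr7:26702056-26702115), which begin at base 1756 and base 1094 of the transcript. The *Cyp2b9* probe (chr7:26995607-26995666) begins at base 1804 of its transcript. Its design entry lists the RefSeq transcripts of both *Cyp2b9* and *Cyp2b10*, so its signal cannot be assigned to *Cyp2b9* alone. By position in the transcripts, the last 12 bases of the *Cyp2b10* 3' probe line up with the first 12 of the *Cyp2b9* probe, with 11 identical bases and 1 difference, A11T, counted from 1 at the first of the 12 bases with the *Cyp2b10* base first. The 30 bases at these ends are shown 5′ to 3′ with the shared stretch in capitals, followed by the whole *Cyp2b10* upstream probe, which gives a reading of *Cyp2b10* from another part of the transcript.
Cyp2b10 3' probe, last 30 bases: gtgctaatggactctgtaTAAGGTCTGAAT
Cyp2b9 probe, first 30 bases: TAAGGTCTGATTtctatgtctacagacttg
Cyp2b10 upstream probe, 60 bases: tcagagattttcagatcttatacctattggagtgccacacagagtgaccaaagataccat

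The promoter windows are the 250 bases before the annotated start of each gene in RefSeq (GRCm38.p6), and all 5 members were found there. The window of *Cyp2b9* was identical to that of *Cyp2b13* at 248 of 250 bases (99.2%), against 71.4% for *Cyp2b9* and *Cyp2b10* in a global alignment. The receptor hexamer AGGTCA was searched on both strands. It was present once in the windows of *Cyp2b9*, *Cyp2b13*, *Cyp2b23* and *Cyp2b19* and in 14% of the 32851 windows of the table, and those letters were not in the *Cyp2b10* window. The variant AGTTCA (11.8% of all windows) was in none of the 5, nor was a direct repeat of AGGTCA with 4 free bases between (0.0152% of all windows) or the same repeat of AGTTCA (0.00913%). The search covered only these 250 bases and these exact letters. Sites farther from the gene or with other letters were not looked for, so whether a member has receptor sites was not tested. The windows of *Cyp2b10* (chr7:25897408-25897657, plus strand) and *Cyp2b9* (chr7:26173159-26173408, plus strand), the named genes of the 3 tested probes, are shown with the hexamer at bases -138 to -133 of *Cyp2b9* in capitals.
Cyp2b10 promoter: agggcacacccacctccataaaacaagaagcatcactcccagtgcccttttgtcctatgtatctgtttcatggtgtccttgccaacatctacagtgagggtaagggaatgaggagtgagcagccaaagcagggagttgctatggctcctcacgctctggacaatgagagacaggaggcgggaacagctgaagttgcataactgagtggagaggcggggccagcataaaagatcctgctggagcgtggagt
Cyp2b9 promoter: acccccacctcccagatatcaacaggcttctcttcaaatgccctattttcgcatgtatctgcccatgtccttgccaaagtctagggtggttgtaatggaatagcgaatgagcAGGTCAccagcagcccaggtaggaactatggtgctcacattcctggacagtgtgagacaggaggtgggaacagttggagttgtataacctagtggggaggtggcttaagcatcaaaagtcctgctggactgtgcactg

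Signals are log2 median spot intensities, quantile normalized between arrays. Each array had between 29510 and 33321 probes well above background, and 32087 probes of 21056 genes were tested. Arrays were washed in 2 batches of 12 and 11, with 3 mice per group in both apart from WT PCN, which had 2 in batch 2. The *Nr1i2* probe did not separate the genotypes (log2 difference between controls -0.03, limma adjusted p = 0.977), so it gives no check of the deletion. All 6 hepatocyte markers were well above background on every array, and their summed log2 signal lay between 19.23 and 19.70 in every group. After PCN, 1 of the 6 rose in *Pxr-/-* mice (*Apoa1*, 0.62), where 1.42% of all genes rose. None rose in WT mice, where 3.79% of all genes did. A bulk measurement cannot tell fewer cells of a type from less RNA per cell.

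*Cyp2b13*, *Cyp2b23* and *Cyp2b19* were not measurable in these livers. Their 5 probes gave 115 readings, of which 2 were well above background, 1 in a *Pxr-/-* CONT mouse and 1 in a *Pxr-/-* PCN mouse, both from *Cyp2b19* probes. Over all 5 probes and 23 mice, the log2 signal on a scale normalized over all probes lay between 4.53 and 5.67. The dimmest probe that counted as well above background on the same arrays lay between 4.82 and 5.32. *Cyp2b13* (chr7:26880905-26880964) ranged from 4.57 to 5.14 and *Cyp2b23* (chr7:27450250-27450309) from 4.64 to 5.07, without 1 reading well above background in any group, PCN mice included. The 3 *Cyp2b19* probes (chr7:27550443-27550502, chr7:27556890-27556949 and chr7:27557545-27557604) ranged from 4.53 to 5.67. No fold change is given for these genes because both sides of every comparison were at background.

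**Figure D1:**
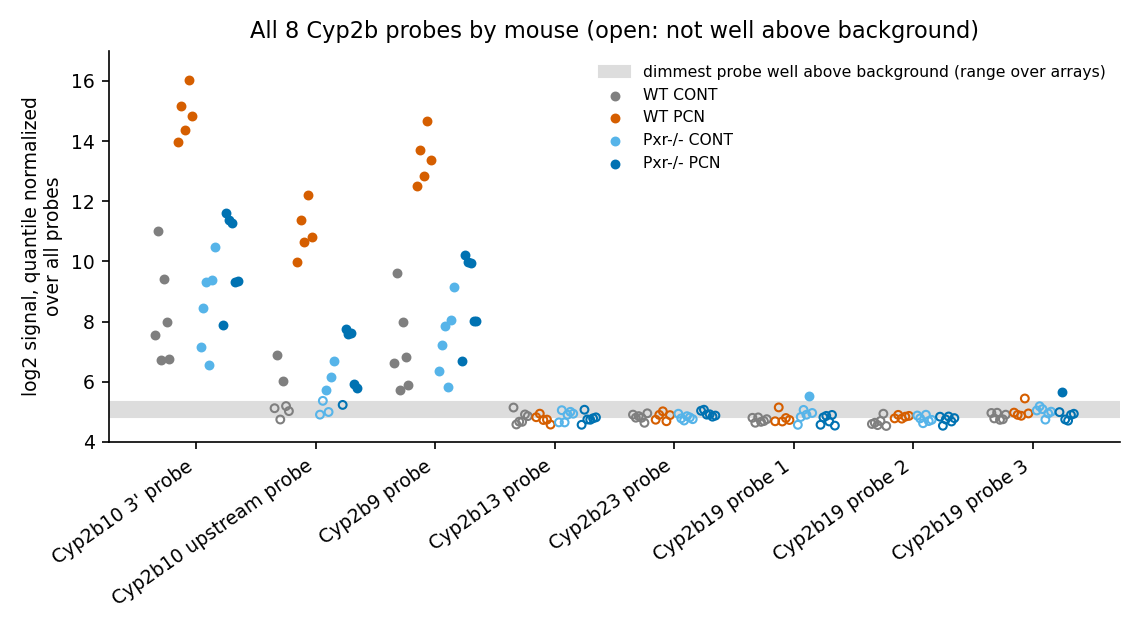
Log2 signal (quantile normalized over all probes) of the 8 *Cyp2b* probes in 23 mice, coloured by group. Open points were not well above background, and the grey band spans the dimmest probe well above background on each array (4.82 to 5.32). The 3 probes of *Cyp2b10* and *Cyp2b9* spread far above the band in WT PCN mice, while the 5 probes of *Cyp2b13*, *Cyp2b23* and *Cyp2b19* stayed between 4.53 and 5.67.

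The effect of PCN was examined first in WT mice, in which PXR is present. The 3' probe of *Cyp2b10*, the CAR marker enzyme, had the largest rise of all tested probes. On the 3' probe the 6 WT CONT mice had log2 signals from 6.74 to 10.99 with a median of 7.78. The 5 WT PCN mice had 13.96, 15.17, 14.35, 16.04 and 14.83. Every WT PCN mouse was above every mouse of the other 3 groups, with a gap of 2.35 to the nearest of them. The fitted rise was 6.76 (SE 0.70, 95% confidence interval 5.31 to 8.20), a 108-fold change in signal (limma, adjusted p = 9.53e-07), rank 1 of the 32087 tested probes. The rank depended on the setting, since the 3' probe was at 5.70 within the second washing batch, where *Cyp2c55* was higher (at least 6.01 in all 12 alternatives), and was below the upstream probe with the scanner's background-subtracted signal.

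The upstream *Cyp2b10* probe, read from the middle of the transcript, gave the same picture at a lower signal. It lay between 4.79 and 6.90 in WT CONT mice (median 5.16), where it was well above background in 2 of 6, and at 9.99, 11.37, 10.65, 12.21 and 10.83 in the 5 WT PCN mice. Its rise was 5.58 (SE 0.44, adjusted p = 1.78e-08). This value depended on the background treatment, since it was 4.78 after normexp correction and 7.83 with the scanner's background-subtracted signal, against 6.57 and 7.05 for the 3' probe.

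The *Cyp2b9* probe, which cannot be assigned to *Cyp2b9* alone, had the second largest rise of the tested probes. WT CONT mice lay between 5.72 and 9.61 (median 6.73) and WT PCN mice at 12.51, 13.71, 12.84, 14.68 and 13.37. The groups did not overlap, and the rise was 6.43 (SE 0.64, adjusted p = 5.47e-07), an 86.1-fold change. All 3 tested probes were thus called higher (adjusted p of at most 0.05 and a fold change above 1.5), where 3.38% of all probes were. The upstream probe was bright enough to be tested only through the PCN groups, so it adds no support to this or the later counts of called probes. The 3' and *Cyp2b9* probes were well above background in all 23 mice. Within the first washing batch the rises were 7.51, 5.97 and 7.13 for the 3', upstream and *Cyp2b9* probes, and within the second they were 5.70, 5.03 and 5.46, all called.

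**Figure D2:**
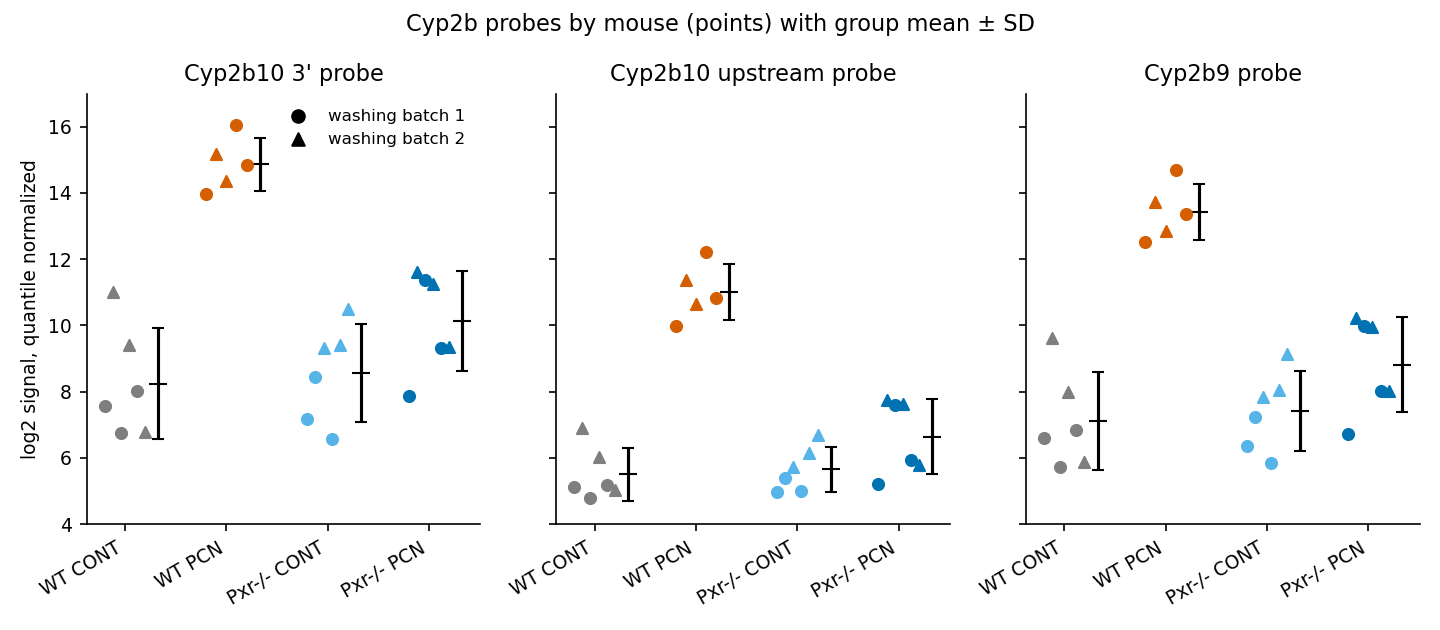
Log2 signal (quantile normalized) of the 3 tested *Cyp2b* probes in each mouse, with the group mean and SD beside the points (n = 5 for WT PCN, otherwise 6) and the washing batch given by the symbol. On the 3' probe the 5 WT PCN mice sit between 13.96 and 16.04, above all 18 other mice, while the other 3 groups overlap.

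The effect of PCN was then examined in *Pxr-/-* mice, which lack the receptor. The same probes were higher on average after PCN, by far less than in WT mice, and did not pass the test. On the *Cyp2b10* 3' probe the 6 *Pxr-/-* CONT mice ranged from 6.56 to 10.49 with a median of 8.88, and the 6 *Pxr-/-* PCN mice from 7.88 to 11.61 with a median of 10.30. The groups overlapped, although 3 of the 6 *Pxr-/-* PCN mice were above the highest control of either genotype. The fitted difference was 1.57 (SE 0.66, 95% confidence interval 0.19 to 2.94, adjusted p = 0.166).

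The upstream probe, well above background in 3 of 6 *Pxr-/-* CONT and 5 of 6 *Pxr-/-* PCN mice, differed by 0.99 (SE 0.42, adjusted p = 0.167), with 0.72 after normexp correction and 1.90 with the background-subtracted signal, neither called. The *Cyp2b9* probe differed by 1.41 (SE 0.61, adjusted p = 0.174). The *Cyp2b9* probe went from a median of 7.54 in *Pxr-/-* CONT to 8.99 in *Pxr-/-* PCN mice, with ranges of 5.84 to 9.14 and 6.71 to 10.22. None of the 3 probes was called by limma, where 1.23% of all probes were called higher. Their unadjusted limma p-values were 0.0276, 0.0278 and 0.0302. These are not 3 separate results, since 2 of the probes read *Cyp2b10* and the *Cyp2b9* probe also lists it. Within the washing batches the 3' probe differed by 2.12 and 1.01.

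The difference between the PCN effects was tested directly. It was 5.19 on the 3' probe (SE 0.96, 95% confidence interval 3.19 to 7.19, adjusted p = 0.00427), 4.58 on the upstream probe (SE 0.61, adjusted p = 1.29e-04) and 5.02 on the *Cyp2b9* probe (SE 0.88, adjusted p = 0.00266). All 3 probes were called, where 0.676% of all probes were called in that direction. Within the first washing batch the values were 5.39, 4.86 and 5.37, with only the upstream probe called. Within the second they were 4.69, 4.16 and 4.40 and none was called, with adjusted p of 0.162, 0.0683 and 0.157 in limma and 11 mice.

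**Figure D3:**
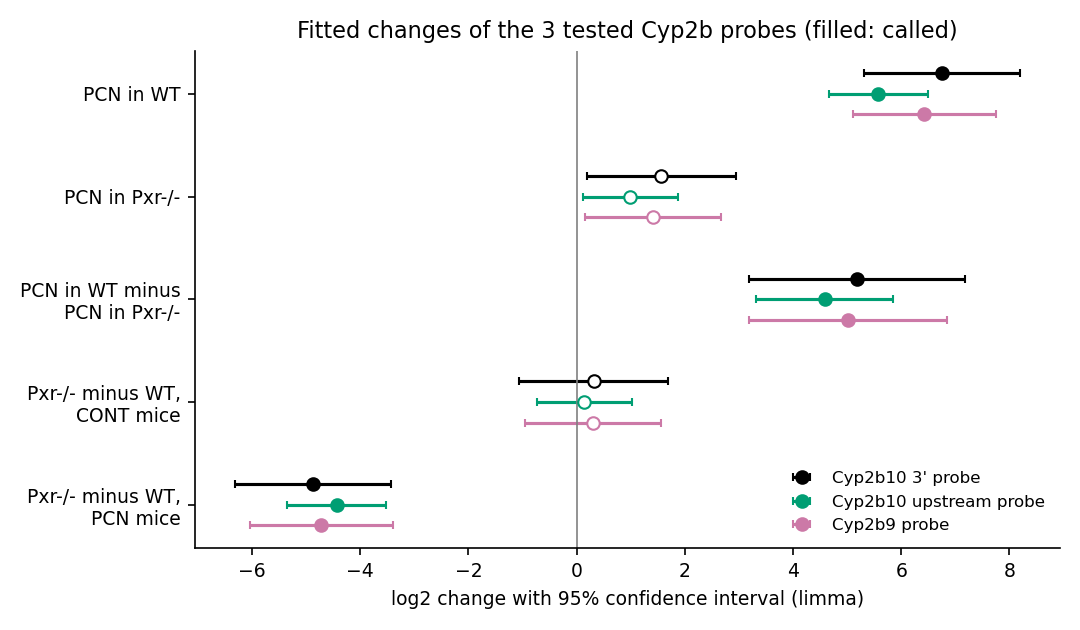
Fitted log2 changes of the 3 tested *Cyp2b* probes in 5 comparisons, with 95% confidence intervals from limma, and filled points where the probe was called. The rise after PCN in WT mice (5.58 to 6.76) and its excess over *Pxr-/-* mice (4.58 to 5.19) are far from 0, while the intervals for *Pxr-/-* against WT controls span 0.

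The basal level of the genes was compared between the genotypes. On the 3' probe, *Pxr-/-* CONT mice averaged 8.56 ± 1.48 (SD, n = 6) and WT CONT mice 8.24 ± 1.67 (n = 6), a fitted difference of 0.32 with a 95% confidence interval of -1.06 to 1.69 (limma, adjusted p = 0.895). The *Cyp2b9* probe differed by 0.30. The upstream probe was well above background in only 2 of 6 WT CONT and 3 of 6 *Pxr-/-* CONT mice, so the size of its difference is set largely by the background treatment (0.15 here, 0.08 after normexp correction and 0.65 with the background-subtracted signal). None of the 3 probes was called (0.271% of all probes were, in either direction), and none had an unadjusted p below 0.05. All 3 intervals reach past the fold threshold of 1.5 (0.585 on the log2 scale) in both directions, so a basal difference of that size was not resolved by 6 mice a group.

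After PCN the genotypes were apart. *Pxr-/-* PCN mice were below WT PCN mice by 4.88 on the 3' probe (fitted difference -4.88, SE 0.70, adjusted p = 1.45e-04), with -4.44 for the upstream probe (adjusted p = 8.81e-07) and -4.72 for the *Cyp2b9* probe (adjusted p = 6.69e-05). All 3 were called lower, where 1.15% of all probes were, and they were the 3 most negative differences on the array. This comparison uses the same PCN mice as those above. Within the second washing batch, with 2 WT PCN mice, the 3' and *Cyp2b9* probes had differences of -4.02 and -3.88 and were not called.

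Mice of 1 group differed widely in *Cyp2b10*. From the lowest to the highest mouse, the 3' probe spanned 19.1-fold in WT CONT, 15.2-fold in *Pxr-/-* CONT and 13.3-fold in *Pxr-/-* PCN mice, and 4.22-fold in WT PCN mice. The highest WT CONT mouse had a log2 signal of 10.99, above the median of *Pxr-/-* PCN mice. In *Pxr-/-* CONT mice the 3 of the first washing batch had 7.16, 8.45 and 6.56 and the 3 of the second had 9.30, 9.39 and 10.49, without overlap. In each of the other groups the batches overlapped. With the deposited, batch-corrected values they overlapped in *Pxr-/-* CONT mice too, with 8.73 in a mouse of the first batch and 8.59 in a mouse of the second. Whether the washing batch had a part in this spread was not tested.

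The 3 probes ordered the mice nearly alike. The *Cyp2b9* probe put the mice of each of the 4 groups in the same order as the *Cyp2b10* 3' probe. Pearson's r between them was 0.998 in WT CONT, 0.995 in *Pxr-/-* CONT and 1.00 in *Pxr-/-* PCN mice (n = 6 each), with a two-sided exact permutation p of 0.00139 in each group, the smallest that 6 mice allow, and 0.00139 after adjustment over the 3 groups. Spearman's rho was 1 in each (exact permutation p = 0.00278). Without the 2 mice farthest from the group's median of *Cyp2b10*, r was 0.989, 0.995 and 1.00, and after removal of the washing batch it was between 0.986 and 0.998. For a second family of 3 relations, the upstream *Cyp2b10* probe followed the 3' probe with r of 0.984, 0.951 and 0.987 in these groups (exact permutation, adjusted p of 0.00417, 0.00833 and 0.00833) and rho of 1, 0.943 and 0.886. Without the 2 farthest mice, r of this pair was 0.853, 0.962 and 0.996. With the washing batch removed, r in *Pxr-/-* CONT mice was 0.848 (exact permutation p = 0.0486), and 0.727 without the 2 farthest mice. Spearman's rho was then 0.714 (exact permutation p = 0.136). The upstream probe was well above background in only 2 of 6 WT CONT and 3 of 6 *Pxr-/-* CONT mice. The log2 difference between the 3' and the *Cyp2b9* probe had an SD of 0.226 over the 23 mice, against SDs of 2.91 and 2.75 for the probes themselves. Since the *Cyp2b9* probe also lists *Cyp2b10*, the likeness cannot be told apart from 1 transcript read by both.

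**Figure D4:**
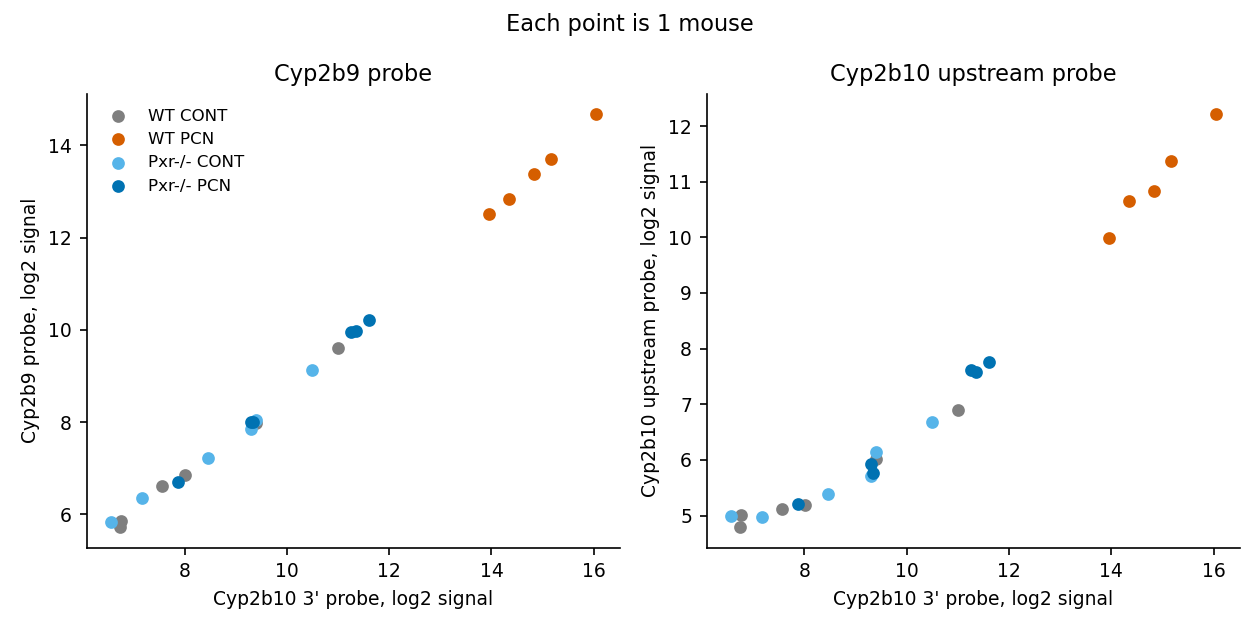
Log2 signal of the *Cyp2b9* probe (left) and the *Cyp2b10* upstream probe (right) against the *Cyp2b10* 3' probe, 1 point per mouse, coloured by group. The *Cyp2b9* probe lies close to a line over the whole range, and the upstream probe levels off near 5 in the mice with a 3' signal below 8, where most of its readings were not well above background.

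Probes lying among the *Cyp2b* genes were examined next. The stretch of chromosome 7 from the first to the last *Cyp2b* probe (chr7:26702056-27557604) held 20 probes, 12 of them under other names, and 3 of these 12 were tested. Of those 3, the probe named NP065022 (chr7:26735373-26735432), between the probes of *Cyp2b10* and *Cyp2b13*, rose in WT mice from 7.78 ± 0.20 (n = 6) to 8.85 ± 0.44 (n = 5), by 1.07 (SE 0.16, adjusted p = 7.32e-05). In *Pxr-/-* mice it was 7.80 and 8.06 (difference 0.26, adjusted p = 0.329), and the difference between the effects, 0.81, did not pass (adjusted p = 0.0720). The NP065022 probe put the 5 WT PCN mice in the same order as the *Cyp2b10* 3' probe, but not the *Pxr-/-* PCN mice. The gene behind this name is not given, and whether the probe shares signal with *Cyp2b10* was not tested. *Cyp2a4* (chr7:27099880-27099939), a steroid 15α-hydroxylase, rose by 0.86 in WT mice (adjusted p = 0.0180), and the third tested probe, of *Nlrp9c*, was not called. Over all probes, 3.38% were called higher in WT mice.

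A list of 10 genes of the same chromosome 7 region, all tested, held Cyp2 genes outside subfamily 2B and the non-P450 genes *Egln2* and *Axl*. Of these 10, 2 rose after PCN in WT mice, *Cyp2g1* (1.08, adjusted p = 0.0125) and *Cyp2a4*. The median change of the 10 was 0.11, beside -0.02 over all genes, and 3.79% of all genes were called higher. Without WT PCN replicate 2 the rises were 0.86 and 0.66 and neither was called, and without WT PCN replicate 3 that of *Cyp2a4* was 0.67 and not called. None of the 10 was called in *Pxr-/-* mice by limma. Between the control groups, 3 of these genes were higher in *Pxr-/-* CONT than in WT CONT mice (0.228% of all genes were), namely *Cyp2g1* by 2.38 (adjusted p = 1.01e-04), *Cyp2a4* by 1.45 (adjusted p = 0.00456) and *Cyp2a5*, the coumarin 7-hydroxylase, by 0.76.

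The sensors and partners of the *Cyp2b* enzymes were examined as a list of 15 genes, all tested. In WT mice 2 rose and 2 fell after PCN (3.79% and 2.39% of all genes did), with a list median of 0.00. *Por*, the reductase that feeds electrons to all microsomal P450s, rose by 1.04 in WT (adjusted p = 9.01e-05), from 15.08 ± 0.26 to 16.10 ± 0.23. In *Pxr-/-* mice *Por* rose by 0.62 (adjusted p = 0.0168). That rise was under 1.5-fold in 4 of 23 fits that left out 1 array, at 0.53 in the lowest, and was not called in 3 of 12 alternatives. The difference between the effects in WT and *Pxr-/-* mice was not called (0.42, adjusted p = 0.396). *Alas1*, the first enzyme of haem synthesis, rose by 0.70 in WT mice. *Nr0b2*, the corepressor SHP, fell by 1.03 (adjusted p = 0.0296), a call lost without WT PCN replicate 1 (by 0.76) or 2 or WT CONT replicate 3 or 5, and *Cebpa*, a hepatocyte transcription factor, fell by 0.72 (adjusted p = 2.01e-04), a call lost with the deposited values and within the second washing batch (-0.54).

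*Nr1i3*, the gene of CAR itself, did not follow the pattern of *Cyp2b10*. Its log2 signal was 11.11 ± 0.27 in WT CONT and 10.78 ± 0.62 in WT PCN mice, a difference of -0.30 that was not called (adjusted p = 0.315). In *Pxr-/-* mice it went from 10.71 ± 0.33 to 11.67 ± 0.30 and rose by 0.97 (adjusted p = 0.00531). The lowest *Pxr-/-* PCN mouse (11.18) was above the highest *Pxr-/-* CONT mouse (11.11). The difference between the effects was -1.27 (adjusted p = 0.0213, where 0.242% of all genes were called in that direction), opposite in sign to that of the *Cyp2b* probes. It was called on 1 of the 2 *Nr1i3* probes. It was -1.92 and -0.50 within the washing batches, neither called, and was not called with the deposited values. *Nr1i2* differed by 0.67 after PCN in WT mice and was not called (adjusted p = 0.103).

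Other genes known as targets of CAR or PXR were followed as a list of 40, of which 35 were tested. In WT mice 26 rose and none fell (3.79% and 2.39% of all genes did), with a median change of 1.30. In *Pxr-/-* mice 5 rose (1.42% of all genes did), namely *Gadd45a*, *Gadd45b*, *Gstm2*, *Slco1a4* and *Ces2a*, with a median of 0.39. The difference between the effects was called for 14 (0.807% of all genes), with a median of 0.83. Between the control groups 8 were higher in *Pxr-/-* mice (0.228% of all genes were) and 1, *Slco1a4*, was lower (0.0807% of all genes were), and between the PCN groups 16 were lower (1.36% of all genes). The largest rises in WT mice belonged to *Cyp2c55* (6.26), an arachidonate-metabolizing P450, *Akr1b7* (4.71), an aldo-keto reductase, and *Gadd45b* (4.35), a stress-response gene known to act with CAR. *Cyp3a11*, the classical PXR target enzyme, rose by 3.55. The list was drawn from textbook knowledge of these receptors with earlier results of the same mice known.

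*Cyp2c55* was the closest to the *Cyp2b* probes in the size of its rise. It rose from 7.12 ± 0.60 to 13.35 ± 0.48 in WT mice, and its difference between control groups was 2.81 (adjusted p = 1.53e-07), where that of the *Cyp2b10* 3' probe was 0.32 and not called. *Pxr-/-* PCN mice lay within 10.40 to 10.56 for *Cyp2c55* and within 7.88 to 11.61 for the *Cyp2b10* 3' probe. *Gadd45b*, with 4.35 in WT mice and 1.23 in *Pxr-/-* mice (adjusted p = 0.00546), rose in both genotypes. The contrasts between genes were not tested.

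**Figure D5:**
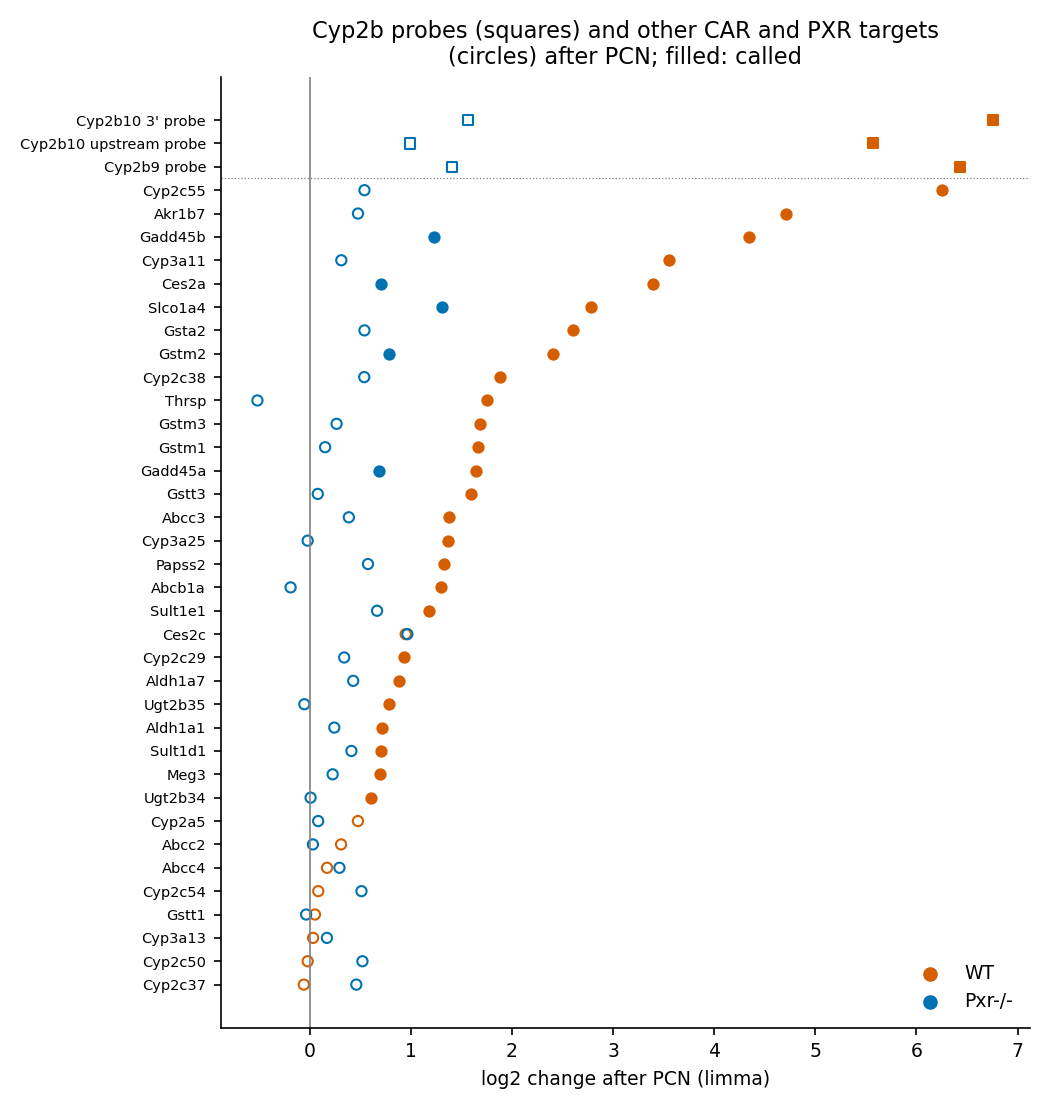
Fitted log2 change after PCN in WT (orange) and *Pxr-/-* (blue) mice for the 3 tested *Cyp2b* probes (squares) and the 35 tested genes of the CAR and PXR target list (circles), with filled symbols where called. The *Cyp2b10* 3' and *Cyp2b9* probes lie to the right of all listed genes in WT mice (6.76 and 6.43, next *Cyp2c55* at 6.26), and in *Pxr-/-* mice *Slco1a4* and *Gadd45b*, at 1.31 and 1.23, are called while the *Cyp2b* probes, at 0.99 to 1.57, are not.

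Because *Cyp2b9* and *Cyp2b13* are female-predominant in liver, genes with sex-biased expression were examined in these males. Of 15 tested female-predominant genes, 7 rose in WT mice and none fell (median 0.22), where 3.79% of all genes rose. The largest rises were *Cyp3a16* (3.16), *Atp6v0d2* (1.99), a proton pump subunit, and *Cyp3a41a* (1.61). The list holds several *Cyp3a* genes with near-identical relatives, and their probes may share signal. Of 18 tested male-predominant genes, 4 fell and none rose (median -0.26), where 2.39% of all genes fell. They were led by *Hsd3b5*, a steroid dehydrogenase, with -1.52, the transporter *Slco1a1* with -0.90 and the hydrolase *Nudt7* with -0.80. The call of *Nudt7* was lost with the deposited values (-0.55) and within each washing batch. The fall of *Hsd3b5* was -1.19 without WT PCN replicate 4 and -1.30 without replicate 2 and was then not called. In *Pxr-/-* mice 1 female-predominant gene rose, *Atp6v0d2* (1.28), and 1 male-predominant gene fell, *Ugt2b1* (-0.67), where 1.42% of all genes rose and 0.86% fell. The call of *Atp6v0d2* was lost in 8 of 23 fits that left out 1 array, with 1.06 in the lowest. It was also lost in 4 of 12 alternatives, with 0.78 in the lowest, and held on 1 of its 2 probes.

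The genes most like the *Cyp2b* probes over the 23 mice were found by Pearson's r of the normalized log2 signal, given as a description, since WT PCN mice stood apart from the 18 others on the *Cyp2b* probes. For *Cyp2b10* they were *Abcc3*, a bile acid and conjugate exporter (r = 0.946), the glutathione transferases *Gstm1* (0.939), *Gstm4* (0.939) and *Gstm3* (0.929), and *Gadd45b* (0.930). For the *Cyp2b9* probe they were the same genes except that *Krt31*, a hair keratin (0.936), took the place of *Gstm3*. Genes chosen in this way had to be high in WT PCN mice, so their changes are given with no test. After PCN in WT mice the log2 change was 1.38 for *Abcc3*, 1.66, 1.68 and 2.45 for *Gstm1*, *Gstm3* and *Gstm4*, and 5.41 for *Krt31*, and in *Pxr-/-* mice it was 0.39 for *Abcc3* and 0.98 for *Krt31*. Each of them was well above background in all 23 mice.

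Markers of other cell types were set beside these results. Of 13 markers of other liver cells, 12 were well above background on every array. Their summed log2 signal spanned 14.92 to 16.06 over all mice with overlap between all groups. In WT mice 1 of the 13 rose (3.79% of all genes did), *Sox9* of bile duct cells (0.76). *Krt19* and *Epcam* of the same cells were not called. *Sox9* was called on 1 of its 2 probes, with 0.30 on the other, and its call was lost in 1 of 12 alternatives. Of 5 keratinocyte markers, chosen because of *Cyp2b19*, 2 were well above background on every array, their summed log2 signal spanned 9.04 to 9.99, and 4 were tested. *Krt14* rose by 2.27 in WT and 2.18 in *Pxr-/-* mice (3.79% and 1.42% of all genes rose). *Lor* fell by 1.72 and 0.85 (2.39% and 0.86% of all genes fell), and *Krt5* and *Krt10* were called in neither genotype. *Krt14* was well above background in 5 of 6 WT CONT and 4 of 6 *Pxr-/-* CONT mice. Its rise in *Pxr-/-* mice was between 1.78 and 3.27 over 12 alternatives, and its call was lost in 1 of them. The fall of *Lor* in *Pxr-/-* mice was not called in 4 of the 23 fits without 1 array or in 2 of 12 alternatives. The *Cyp2b19* probes stayed at background in the same mice. The part of these cells in the *Cyp2b* results was not tested.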

How the data were processed

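Total liver RNA was labelled with Cy3 and hybridised to Agilent mouse arrays, and per the file headers the deposited scanner files (Agilent Feature Extraction 10.10.1.1) hold 1 intensity per spot on a linear scale, not normalized between arrays. The authors also deposited log2 values, filtered, batch-corrected and normalized with CrossNorm, which served as an alternative. Here log2 median signals were used (gMedianSignal, named in the study's methods), with 2225 outlier spots set to missing and spots of a probe averaged. A probe was kept if some group had it well above background on over 50% of its arrays, and kept probes were quantile normalized. All 23 arrays entered 1 limma 3.58.1 fit (R 4.3.3) with terms for group and washing batch (18 residual degrees of freedom), and p-values were adjusted by Benjamini-Hochberg over 32087 probes. Calls required an adjusted p no higher than 0.05 with a change of over 1.5-fold. Genes with several probes were read from the brightest. The fit recovered changes planted in simulated data. Arrays give no molecule counts, so their number limits precision.

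Named genes were all *Cyp2b* members, *Nr1i2*, *Nr1i3*, *Por*, *Cyp3a11* and *Cyp2c55*, the 3 called genes of each list with the largest change in WT mice, and the 5 genes most like *Cyp2b10* and the *Cyp2b9* probe. Other genes named beside a count were chosen after their values were seen. The lists covered sensors and partners, CAR and PXR targets, sex-biased genes, chromosome 7 neighbours (*Cyp2*, *Egln2* and *Axl*) and cell type markers. Members and lists were chosen with earlier results of these data known. Promoters came from RefSeq, GRCm38.p6.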

Additional observations from a re-analysis of the deposited data

Results flagged for a closer look

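The PCN effect differed between the genotypes, by the interaction term of the limma fit, for all 3 tested *Cyp2b* probes, with 5.19 for the *Cyp2b10* 3' probe, 4.58 for its upstream probe and 5.02 for the *Cyp2b9* probe. The same term was called for *Cyp2c55* (5.72), *Krt31* (4.42), *Akr1b7* (4.23), *Cyp3a11* (3.24), *Gadd45b* (3.12), *Cyp3a16* (2.92), *Gstm4* (2.11), *Gstm1* (1.51), *Cyp3a41a* (1.44), *Gstm3* (1.41) and *Abcc3* (0.99). Over all genes 0.807% were called in that direction. For *Krt31*, *Gadd45b*, *Abcc3* and the 3 *Gstm* genes this is no independent result, since likeness to the *Cyp2b* probes over the same mice selects for it. Nor is it for *Akr1b7*, *Cyp3a16* and *Cyp3a41a*, named for their large changes in WT mice, since that change is part of the term. The term was negative for *Nr1i3* (-1.27), the only named gene with a larger change in *Pxr-/-* than in WT mice that was called.

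Single mice stood apart from the rest of their group by Dixon's criterion in 12 of 132 sets of values, where chance gives about 1 in 20. None of these was a tested *Cyp2b* probe. Among the *Cyp2b19* probes, at background, the values were 5.15 (WT PCN replicate 2), 5.45 (WT PCN replicate 4) and 5.67 (*Pxr-/-* PCN replicate 2). *Pxr-/-* PCN replicate 2 also stood apart for *Akr1b7* (8.18) and *Krt14* (6.23). *Pxr-/-* CONT replicate 2 stood apart for *Cyp3a16* (12.76) and *Atp6v0d2* (8.22), and replicate 4 for *Abcc3* (13.15). WT CONT replicate 6 was lowest for *Cyp3a11* (12.83) and *Cyp3a16* (11.91), and WT CONT replicate 2 was lowest for *Hsd3b5* (12.48) and highest for *Gstm1* (16.44).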

How the results depend on the processing

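The rise of the 3 tested *Cyp2b* probes in WT mice was called under all 12 alternatives and without each array in turn, from 5.70 to 7.51 for the *Cyp2b10* 3' probe, 4.78 to 7.83 for the upstream probe and 5.46 to 7.13 for the *Cyp2b9* probe, and from 6.33 to 7.18, 5.20 to 5.80 and 6.00 to 6.82 in leave-one-out fits. In *Pxr-/-* mice none was called under any of them (adjusted p from 0.0697 to 0.640). The difference between the PCN effects lost its call within washing batch 1 for the 3' (5.39, adjusted p = 0.0740) and *Cyp2b9* probes (5.37, adjusted p = 0.0613), leaving 1 gene called, and within batch 2 for all 3 (4.69, 4.16 and 4.40), leaving 0 genes. Between PCN groups batch 2 gave -4.02 and -3.88 for the 3' and *Cyp2b9* probes, not called, leaving 1 gene. These within-batch fits rest on 12 and 11 mice. Between controls the 3' probe was at -0.0423 in batch 1, and without single arrays the 3', upstream and *Cyp2b9* probes ranged from -0.14 to 0.76, -0.0356 to 0.36 and -0.0801 to 0.71, with the negative values all without WT CONT replicate 6.

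Other directions turned for values that were not called. In batch 1 the interaction of *Nr1i2* was -0.38 and of *Krt14* -0.47 (-0.11 for *Krt14* with the processed signal), in batch 2 that of *Nr0b2* was 0.42 and of *Sox9* -0.50, the *Nr1i3* change in WT mice was 0.33 and *Nr1i2* between controls 0.77. Leave-one-out ranges that crossed 0 were -0.26 to 0.18 for *Nr1i2* between controls, and for the interaction -0.024 to 0.40 (*Nr1i2*), -0.0109 to 0.24 (*Sox9*) and -0.25 to 0.28 (*Krt14*). The interaction of *Nr1i3* was not called with the deposited values, nor were *Nr0b2*, *Cebpa* and *Nudt7* in WT mice. Leaving out single arrays ended the call in WT mice of *Nr0b2* in 4 of 23 fits (-1.21 to -0.76), and in *Pxr-/-* mice of *Por* in 4 (0.53 to 0.75), *Krt31* in 6, *Atp6v0d2* in 8 and *Lor* in 4. The causes were not tested.

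Over all probes, the number called in WT mice was 1770 and became 2884 with the processed signal. Between PCN groups it was 573 and became 1439 with the deposited values and 903 with the processed signal, and between controls 87 became 56 with only the groups compared. Within batch 1 and batch 2 the numbers were 2087 and 1043 (WT), 71 and 120 (*Pxr-/-*, 620 with all mice), 116 and 127 (interaction, 283), 14 and 71 (controls) and 371 and 145 (PCN groups). The median change of all probes in the main fit was -0.0231 in WT mice, -0.00609 between controls and 0.0112 between PCN groups. With the deposited values these medians were 0.11, -0.11 and -0.18. The deposited values also moved the share of higher calls from 61.3% to 84.4% (WT), 63.9% to 75.6% (*Pxr-/-*), 76.7% to 88.8% (interaction), 77% to 47% (controls) and 35.6% to 4.79% (PCN groups). The last was 52.5% with the processed signal and 48.8% with 75th percentile scaling.

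Same-numbered mice of different groups deviated together, with r above 0.1, in 9 of 22 pairs (range -0.09 to 0.49). Differently numbered mice were not compared, so whether the numbers pair the mice was not tested. With a replicate block the rises in WT mice were 6.60, 5.48 and 6.30, and no call of a *Cyp2b* probe changed.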

Other observations

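Because *Cyp2b10* varied widely between mice of 1 group, the genes that varied with it were listed for the 18 mice outside WT PCN, using each mouse's deviation from its group mean. This measure was chosen after seeing the data and is a description over mice that share slides and washing batches. The genes named are extremes picked from the tested genes over 18 mice, where large values of r arise by chance. Whether any of them varies with *Cyp2b10* beyond that was not tested. The highest r with the *Cyp2b10* 3' probe belonged to *Zfp52* (0.867), the transporter *Slc22a27* (0.865) and *Epas1*, the hypoxia-inducible factor HIF-2α (0.864). The most negative belonged to *Cebpa*, a hepatocyte transcription factor (-0.885), and *Cfhr2*, a complement factor H-related gene (-0.877). With the washing batch also removed, the values were 0.835 for *Zfp52*, 0.791 for *Slc22a27*, 0.834 for *Epas1*, -0.861 for *Cebpa* and -0.804 for *Cfhr2*, and *Cox7a2*, a subunit of cytochrome oxidase, was then the highest at 0.853. *Slc22a27* was also on the female-predominant list and *Cebpa* on the list of sensors and partners. None of the CAR and PXR targets was among the 5 highest in either form. With 35 tested targets among 21056 tested genes, this absence carries no information about them.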
